A study of Mus musculus with 6 samples.

Results

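Genes that copy DNA were followed in osteoclasts made to express HES1 and in control osteoclasts. The set holds 41 genes chosen by name for their role in DNA replication and the S phase of the cell cycle, out of 55573 genes counted, and was divided by role into 9 groups. All 41 were among the 16954 genes that could be tested. Bone marrow–derived macrophages (BMMs) of 10-week-old mice, labelled as male, were cultured for 4 days with macrophage colony-stimulating factor (M-CSF) at 30 ng/ml, a growth and survival factor of the precursors, and with receptor activator of NF-κB ligand (RANKL) at 10 ng/ml, which makes them differentiate and fuse. RNA-Seq was performed on 3 control and 3 Rosa-Hes1 cultures, the latter labelled as HES1 over-expressing. Rosa-Hes1 mice carry Cre in the *Ctsk* locus together with a *Rosa26* allele from which HES1-IRES-GFP is expressed once Cre has removed a STOP cassette. The labels call the controls wild type, whereas the methods describe them as littermates that keep the *Rosa26* allele with its STOP cassette and have no Cre. The *Ctsk* gene is switched on as the cells mature into osteoclasts, so that precursors in the same dish may not have recombined. The parental lines were on ICR and C57BL/6 backgrounds.

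DNA replication starts at origins that are marked by the origin recognition complex and licensed when CDC6 and CDT1 load the MCM helicase. The helicase is switched on at the start of S phase, and primase, the DNA polymerases, the sliding clamp PCNA and its loader then copy both strands, while other enzymes supply deoxynucleotides and rebuild chromatin. Transcription of many of these genes is governed by E2F factors, and it falls as cells leave the cell cycle. Macrophage precursors divide in response to M-CSF, whereas the multinucleated osteoclast forms by fusion and is a postmitotic cell. RNA was taken from whole cultures, so that fewer dividing cells and less replication RNA per cell cannot be told apart in these values.

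Levels are given as CPM, the counts of a gene relative to the TMM-scaled size of its library. The groups were compared by edgeR's quasi-likelihood test, and a gene was called at an adjusted p under 0.05. SE is the standard error of a log2 fold change. Between 13038362 and 15956331 counts were assigned to genes per library. *Hes1* itself had 0.517, 0.557 and 0.296 CPM in control libraries 1 to 3 and 4.95, 4.83 and 6.91 CPM in Rosa-Hes1 libraries 1 to 3, with no overlap (log2 fold change 3.57 ± 0.30 SE, edgeR adjusted p = 0.00477). On the first principal component of all tested genes, which held 38.1% of the variance, Rosa-Hes1 2 lay at 2.76, between the control libraries (-43.6 to -15.7) and the other Rosa-Hes1 libraries (36.4 and 38.2).

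Replication genes were lower in Rosa-Hes1 cultures as a group. The summed level of the 41 genes was 4953, 4756 and 4669 CPM in control libraries 1 to 3 and 3469, 4078 and 3024 CPM in Rosa-Hes1 libraries 1 to 3. The Rosa-Hes1 mean was 73.5% of the control mean, and the groups did not overlap. Of the 41 genes 21 fell, 0 rose and 20 did not pass the test, where 2.41% of all tested genes fell and 5.85% rose by the same rule. All 41 log2 fold changes were below 0, from -0.81 to -0.06 with a median of -0.47, against a median of -0.01 over all tested genes. At an unadjusted p under 0.05 in edgeR 38 were lower and 0 higher, and 0 rose in DESeq2 or limma-voom. Of all 16954 tested genes, 4357 had an unadjusted p under 0.05 in edgeR, counting both directions. In 37 of the 41 genes every Rosa-Hes1 library was below every control library, a pattern that 14.5% of all tested genes showed. The exceptions were *Cdt1*, *Prim2*, *Rfc2* and *Chaf1b*. With 3 libraries a group, the smallest p of an exact permutation test is 0.1, so that test was not applied gene by gene.

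The count of genes that fell depended on single libraries. With Rosa-Hes1 2 left out it was 35, with Rosa-Hes1 1 left out it was 0, and with Rosa-Hes1 3 left out it was 2. Without control 1, 2 or 3 it was 1, 3 and 2, respectively. The number at an unadjusted p under 0.05 stayed between 33 and 39 in the same fits, and the median log2 fold change was between -0.59 and -0.36. *E2f1* passed the test in all of these fits but the one without Rosa-Hes1 1, where its adjusted p was 0.0521 in edgeR. *Prim1* passed without control 2, control 3, Rosa-Hes1 2 or Rosa-Hes1 3, and *Mcm3* passed without control 2 and without Rosa-Hes1 2. Each of the other called genes passed only when no library or Rosa-Hes1 2 was left out.

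**Figure D1:**
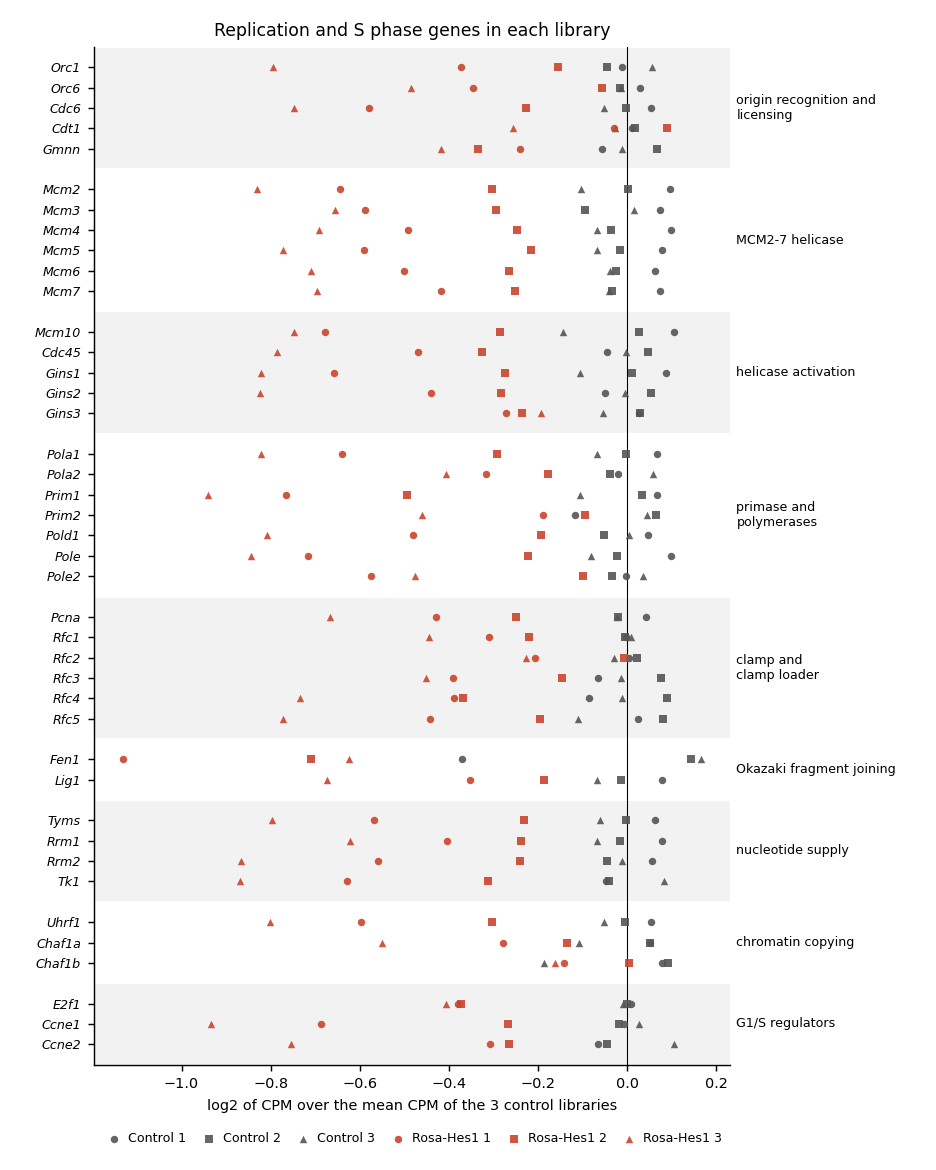
Level of each of the 41 replication and S phase genes in each library, as log2 of its CPM over the mean CPM of the 3 control libraries (x axis), with genes grouped by role (y axis); grey symbols are control and red symbols are Rosa-Hes1 libraries. In 37 genes the 3 red symbols all lie to the left of the 3 grey ones, and the red square, Rosa-Hes1 2, is the rightmost red symbol in 38.

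Among the genes that recognize and license origins, *Cdc6* and *Gmnn* fell, and *Orc1*, *Orc6* and *Cdt1* did not pass. *Cdc6* encodes the ATPase that works with CDT1 to load the helicase. It had 61.4, 59.1 and 57.1 CPM in control libraries 1 to 3 and 39.6, 50.6 and 35.3 CPM in Rosa-Hes1 libraries 1 to 3. All Rosa-Hes1 values were below all control values, and the mean was 59.2 ± 2.16 CPM against 41.8 ± 7.89 CPM (control and Rosa-Hes1, SD of 3 libraries; log2 fold change -0.50 ± 0.12 SE, edgeR adjusted p = 0.0441). *Gmnn* encodes geminin, which binds CDT1 and prevents origins from being licensed again in the same cycle. Its level was 78.3, 85.3 and 80.8 CPM in control and 68.9, 64.6 and 60.9 CPM in Rosa-Hes1 libraries, and the groups did not overlap (log2 fold change -0.33 ± 0.07 SE, edgeR adjusted p = 0.0309). *Cdt1*, the partner of CDC6 and the target of geminin, stood apart from most members. It had 116, 116 and 113 CPM in control and 113, 122 and 96.3 CPM in Rosa-Hes1 libraries. The highest and the lowest of the 6 values were both in Rosa-Hes1 libraries, and its log2 fold change, -0.06, was the closest to 0 among the 41 genes (SE 0.09, edgeR adjusted p = 0.746). *Orc1* and *Orc6*, which encode subunits of the origin recognition complex, ranged from 12.8 to 13.8 CPM and from 53.6 to 55.2 CPM in control, and from 7.63 to 11.9 CPM and from 38.7 to 52.1 CPM in Rosa-Hes1 libraries.

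The MCM2 to MCM7 proteins form the ring that unwinds DNA at the fork. Of the 6 genes that encode them 5 fell, and *Mcm5* did not pass. Their log2 fold changes were close to each other, from -0.58 to -0.44, and in each of the 6 all Rosa-Hes1 libraries were below all control libraries. *Mcm2* had 198, 185 and 172 CPM in control libraries 1 to 3 and 119, 150 and 104 CPM in Rosa-Hes1 libraries 1 to 3 (log2 fold change -0.58 ± 0.13 SE, edgeR adjusted p = 0.0322). *Mcm3* had 259, 231 and 249 CPM in control and 164, 201 and 156 CPM in Rosa-Hes1 libraries (log2 fold change -0.50 ± 0.10 SE, edgeR adjusted p = 0.0216). For *Mcm4* the values were 222, 202 and 198 CPM in control and 147, 175 and 128 CPM in Rosa-Hes1 libraries (log2 fold change -0.47 ± 0.11 SE, edgeR adjusted p = 0.0377). In these 3 genes the 3 Rosa-Hes1 libraries kept the order 2, 1 and 3 from high to low. *Mcm5* was at 326, 306 and 295 CPM in control and 205, 266 and 181 CPM in Rosa-Hes1 libraries (log2 fold change -0.51 ± 0.13 SE, edgeR adjusted p = 0.0534). *Mcm6* was at 459.7, 433 and 429 CPM in control and 311, 366 and 269.5 CPM in Rosa-Hes1 libraries (log2 fold change -0.48 ± 0.11 SE, edgeR adjusted p = 0.0298). *Mcm7* was at 225, 209 and 208 CPM in control and 159.9, 179 and 132 CPM in Rosa-Hes1 libraries (log2 fold change -0.44 ± 0.11 SE, edgeR adjusted p = 0.0401). *Mcm5* was 1.42-fold lower, as was *Mcm3*, with a larger standard error. Summed over the 6 genes, the Rosa-Hes1 mean was 71.1% of the control mean.

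Loaded helicases are activated when CDC45 and the GINS complex join them, with the help of MCM10. *Mcm10*, *Cdc45* and *Gins1* fell, and *Gins2* and *Gins3* did not pass. *Mcm10* had 113, 107 and 95.2 CPM in control and 65.7, 86.3 and 62.6 CPM in Rosa-Hes1 libraries (log2 fold change -0.55 ± 0.13 SE, edgeR adjusted p = 0.0346). *Cdc45* had 50.6, 53.9 and 52.1 CPM in control and 37.7, 41.6 and 30.2 CPM in Rosa-Hes1 libraries (log2 fold change -0.51 ± 0.11 SE, edgeR adjusted p = 0.0301). *Gins1* had 29.1, 27.6 and 25.4 CPM in control and 17.4, 22.6 and 15.5 CPM in Rosa-Hes1 libraries (log2 fold change -0.56 ± 0.14 SE, edgeR adjusted p = 0.045). All Rosa-Hes1 values of these 3 genes were below all control values. *Gins3*, a further GINS subunit, had 19.7, 19.8 and 18.6 CPM in control and 16.03, 16.4 and 16.9 CPM in Rosa-Hes1 libraries. Its groups did not overlap and its Rosa-Hes1 libraries hardly differed, but the change was small and did not pass (log2 fold change -0.23 ± 0.09 SE, edgeR adjusted p = 0.136). On 233 to 252 counts in those libraries, counting noise alone would be expected to spread the values more. *Gins2* ranged from 34.3 to 36.9 CPM in control and from 20.1 to 29.2 CPM in Rosa-Hes1 libraries, and 67.3% of its exonic bases lie in exons of *Gse1* on the opposite strand.

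Primase lays down the RNA primers that DNA polymerase α extends, and polymerases δ and ε carry on from there. *Prim1*, which encodes the catalytic subunit of primase (ENSMUSG00000025395, GRCm38 chromosome 10 from 128015168 to 128030037), had 45.3, 44.3 and 40.2 CPM in control and 25.5, 30.7 and 22.5 CPM in Rosa-Hes1 libraries. The highest Rosa-Hes1 value was below the lowest control value, and at 1.65-fold this was the largest fall among the 21 called genes (control mean 43.3 ± 2.69 CPM and Rosa-Hes1 mean 26.2 ± 4.16 CPM, SD of 3 libraries; log2 fold change -0.72 ± 0.12 SE, edgeR adjusted p = 0.0118). *Prim2* encodes the other primase subunit, and its values overlapped between the groups. They were 46.2, 52.4 and 51.7 CPM in control and 43.9, 46.9 and 36.4 CPM in Rosa-Hes1 libraries (log2 fold change -0.24 ± 0.11 SE, edgeR adjusted p = 0.194). *Pola1*, the catalytic subunit of polymerase α, had 106, 101 and 96.4 CPM in control and 64.8, 82.4 and 57.1 CPM in Rosa-Hes1 libraries, with no overlap (log2 fold change -0.57 ± 0.12 SE, edgeR adjusted p = 0.0308). *Pola2*, *Pold1*, *Pole* and *Pole2*, which encode further polymerase subunits, had no overlap either, and their log2 fold changes were -0.30, -0.47, -0.57 and -0.37. None of these 4 passed, with adjusted p = 0.0517, 0.0737, 0.0594 and 0.114 from edgeR. The difference in log2 fold change between *Prim1* and *Prim2* was not tested.

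PCNA is the ring that holds polymerases on DNA, and replication factor C is the complex that opens and places it. *Pcna*, *Rfc1* and *Rfc4* fell, and *Rfc2*, *Rfc3* and *Rfc5* did not pass. *Pcna* had 293, 281 and 280.4 CPM in control and 212, 239.7 and 179.5 CPM in Rosa-Hes1 libraries (log2 fold change -0.44 ± 0.10 SE, edgeR adjusted p = 0.0333). *Rfc1*, the large subunit of the loader, was at 121, 120.3 and 121 CPM in control and 97.3, 104 and 88.6 CPM in Rosa-Hes1 libraries (log2 fold change -0.32 ± 0.07 SE, edgeR adjusted p = 0.0319). *Rfc4* was at 33.3, 37.6 and 35.1 CPM in control and 26.98, 27.3 and 21.2 CPM in Rosa-Hes1 libraries (log2 fold change -0.49 ± 0.11 SE, edgeR adjusted p = 0.0345). In none of these 3 did the groups overlap, and *Rfc1* had nearly the same value in the 3 control libraries. That agreement, on 1633 to 1943 counts, is closer than counting noise alone would be expected to give. *Rfc2* was at 105, 106 and 102 CPM in control and 90.5, 104 and 89.1 CPM in Rosa-Hes1 libraries, and Rosa-Hes1 2 lay within the control range (log2 fold change -0.14 ± 0.08 SE, edgeR adjusted p = 0.279). *Rfc3* and *Rfc5* had log2 fold changes of -0.32 and -0.45 without overlap between the groups.

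*Fen1* and *Lig1*, which trim and seal the Okazaki fragments of the lagging strand, did not pass. *Lig1*, DNA ligase I, had 166, 155 and 149.5 CPM in control and 123, 138 and 98.2 CPM in Rosa-Hes1 libraries (log2 fold change -0.39 ± 0.12 SE, edgeR adjusted p = 0.0751). *Fen1*, the flap endonuclease, had 3.47, 4.95 and 5.03 CPM in control and 2.05, 2.74 and 2.91 CPM in Rosa-Hes1 libraries (log2 fold change -0.81 ± 0.23 SE, edgeR adjusted p = 0.067). Neither gene overlapped between the groups. *Fen1* had the lowest level and the largest fold change of the set, 1.75-fold, on 31 to 80 counts per library, and it is uncertain because 84.2% of its exonic bases lie in exons of *Tmem258* or *Gm10143* on the opposite strand.

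Of the enzymes that supply deoxynucleotides, *Tyms*, *Rrm1* and *Tk1* fell, and *Rrm2* did not pass. *Tyms* encodes thymidylate synthase and had 58.97, 56.3 and 54.1 CPM in control and 38.1, 48.1 and 32.5 CPM in Rosa-Hes1 libraries (log2 fold change -0.51 ± 0.13 SE, edgeR adjusted p = 0.049). *Tk1*, thymidine kinase of the salvage pathway, had 149, 149.9 and 163 CPM in control and 99.7, 124 and 84.3 CPM in Rosa-Hes1 libraries (log2 fold change -0.58 ± 0.13 SE, edgeR adjusted p = 0.0316). *Rrm1* and *Rrm2* encode the large and the small subunit of ribonucleotide reductase. *Rrm1* had 352, 329.7 and 319 CPM in control and 252, 283 and 217 CPM in Rosa-Hes1 libraries (log2 fold change -0.41 ± 0.10 SE, edgeR adjusted p = 0.0382). *Rrm2* had 200.4, 187 and 191 CPM in control and 131, 163 and 106 CPM in Rosa-Hes1 libraries (log2 fold change -0.53 ± 0.14 SE, edgeR adjusted p = 0.0562). None of the 4 genes overlapped between the groups. *Rrm2* had the larger fold change of the reductase subunits, 1.45-fold against 1.33-fold, and the larger standard error.

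Chromatin is copied behind the fork. *Uhrf1*, which carries DNA methylation to the new strand, had 293, 281 and 272 CPM in control and 187, 229 and 162 CPM in Rosa-Hes1 libraries and fell (log2 fold change -0.55 ± 0.12 SE, edgeR adjusted p = 0.0264). *Chaf1a* and *Chaf1b* encode subunits of the assembly factor that places histones on new DNA, and neither passed. *Chaf1b* was at 67.6, 68.2 and 56.3 CPM in control and 58.04, 64.2 and 57.2 CPM in Rosa-Hes1 libraries, with overlapping groups (log2 fold change -0.10 ± 0.09 SE, edgeR adjusted p = 0.572). *Chaf1a* ranged from 77.9 to 87.0 CPM in control and from 57.3 to 76.4 CPM in Rosa-Hes1 libraries, and shares 52.5% of its exonic bases with *Ubxn6* on the opposite strand.

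The transcription factor E2F1 and the E-type cyclins drive the passage from G1 into S phase. *E2f1* (ENSMUSG00000027490, chromosome 2 from 154559407 to 154569892) had 80.2, 79.7 and 79.3 CPM in control and 61.3, 61.6 and 60.1 CPM in Rosa-Hes1 libraries. The 2 groups were narrow and far apart, with means of 79.8 ± 0.475 and 61.02 ± 0.789 CPM (SD of 3 libraries), and *E2f1* had the smallest adjusted p of the set (log2 fold change -0.39 ± 0.06 SE, edgeR adjusted p = 0.0101). On 827 to 1288 counts per library, counting noise alone would be expected to spread the values more than this. The narrow groups are therefore not shown to be a trait of *E2f1*. *Ccne1*, which encodes cyclin E1, had 47.7, 47.3 and 48.8 CPM in control and 29.8, 39.8 and 25.1 CPM in Rosa-Hes1 libraries and fell, with a wide spread among the Rosa-Hes1 libraries (log2 fold change -0.60 ± 0.15 SE, edgeR adjusted p = 0.0467). *Ccne2*, which encodes cyclin E2, had 41.6, 42.2 and 46.8 CPM in control and 35.2, 36.2 and 25.8 CPM in Rosa-Hes1 libraries and did not pass, although the groups did not overlap (log2 fold change -0.43 ± 0.13 SE, edgeR adjusted p = 0.0783).

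**Figure D2:**
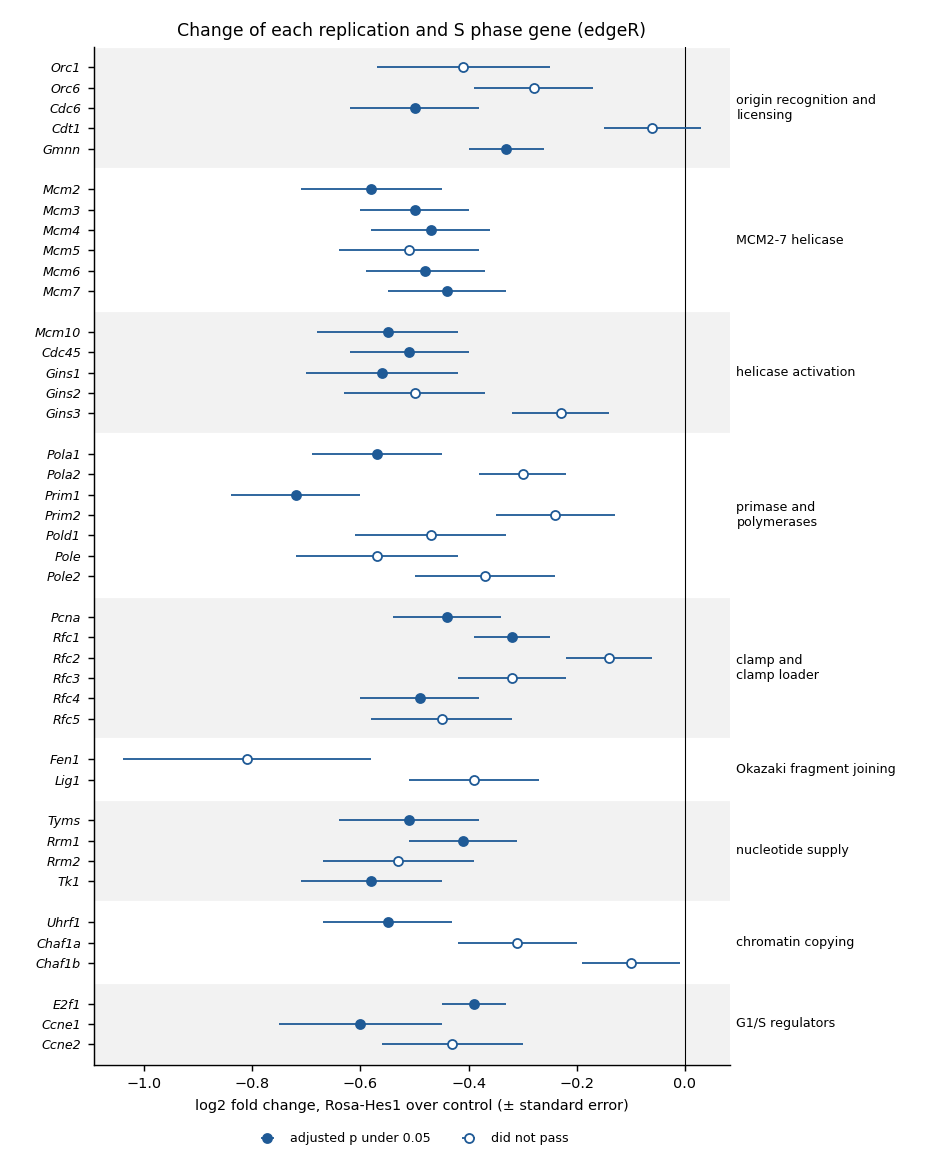
log2 fold change of Rosa-Hes1 over control for each gene (x axis; bars are the standard error from edgeR), with genes grouped by role (y axis). Filled circles mark the 21 genes with an adjusted p under 0.05 and open circles the 20 that did not pass; all 41 lie below 0.

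By role, 5 of 6 MCM2 to MCM7 genes, 3 of 4 nucleotide genes, 2 of 3 G1/S genes and 3 of 5 helicase activation genes fell. So did 3 of 6 clamp and clamp loader genes, 2 of 5 licensing genes, 1 of 3 chromatin genes, 2 of 7 primase and polymerase genes and 0 of 2 genes of Okazaki fragment joining. At an unadjusted p under 0.05 the 0 became 2. The median log2 fold change of a role lay between -0.60 and -0.31. Relative to the control mean, the summed level in Rosa-Hes1 was lowest for helicase activation (70.2%) and highest for licensing (84.0%). The differences between roles were not tested. Levels per kilobase of exon in control osteoclasts ran from 1.85 CPM per kilobase for *Fen1* to 118.7 CPM per kilobase for *Pcna*, and the log2 fold change did not follow them (Spearman's rho of -0.05 across the 41 genes, a description, since genes of 1 library are not independent).

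**Figure D3:**
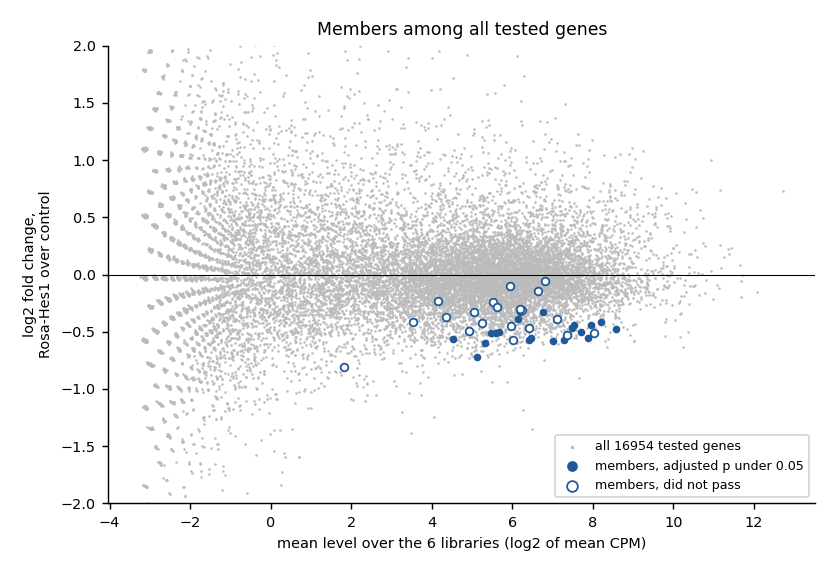
log2 fold change of Rosa-Hes1 over control (y axis) against the mean level over the 6 libraries in log2 of CPM (x axis) for the 16954 tested genes (grey) and the 41 replication and S phase genes (blue, filled where the adjusted p was under 0.05). The members lie below 0 over their whole range of levels; 169 tested genes beyond 2 in either direction are outside the plot.

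The Rosa-Hes1 libraries differed among themselves in nearly the same way from gene to gene. Within that group, Rosa-Hes1 2 was highest for 38 of the 41 genes and Rosa-Hes1 3 was lowest for 38, and Rosa-Hes1 3 was the lowest of all 6 libraries for 37. Against the control mean, the summed level was 72.4%, 85.1% and 63.1% in Rosa-Hes1 libraries 1 to 3. The median coefficient of variation (CV, the SD over the mean) of a member was 4.54% in control and 15.8% in Rosa-Hes1 osteoclasts, and it was larger in Rosa-Hes1 for 38 of 41 genes. Among all tested genes that averaged 10 CPM or more, the medians were 6.57% and 7.26%, and 55.3% had the larger CV in Rosa-Hes1. The exceptions among the members were *Gins3*, *Fen1* and *Chaf1b*. *E2f1*, with a CV of 1.29% in Rosa-Hes1, was the most even member there, and *Ccne1*, at 23.9%, the least. For *E2f1*, counting noise alone would be expected to give a larger CV. The difference in spread was not tested.

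**Figure D4:**
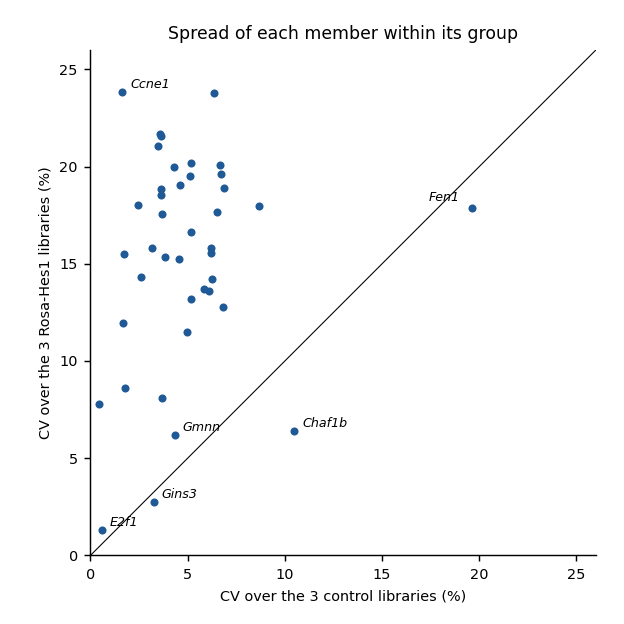
CV over the 3 Rosa-Hes1 libraries (y axis, %) against that over the 3 control libraries (x axis, %) for each of the 41 genes, with the line of equal CV. Of the 41 points 38 lie above the line, while *E2f1*, *Gmnn* and *Gins3* are close to it.

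The promoters of the members were searched for 3 short motifs, because E2F sites are known from many replication promoters and because HES1 binds N boxes. RefSeq promoters on GRCm38.p6, from 250 bases before to 50 after a start site, were at hand for 33 of the 41 genes. The E2F letters TTTCCCGC, TTTCGCGC, TTTGCCGC or TTTGGCGC were found on either strand for 14 of the 33 genes (42.4%), against 4.50% of the tested genes with a promoter. In the lists of further replication and mitosis genes described below, the shares were 24.2% and 4.76%. Of the promoters themselves, 36.8% of those of the members, 3.76% of those of tested genes and 2.26% of all held these letters. The N box letters CACNAG were found for 54.5% of the members and 45.2% of the tested genes, and CCAAT for 57.6% and 42.6%. Among further replication genes the N box and CCAAT shares were 39.4% and 51.5%, and among mitosis genes 28.6% and 81%. Among members with an E2F match, 6 of 14 fell and the median log2 fold change was -0.46. Among those without one, 12 of 19 fell and the median was -0.49. Of the 8 members with no promoter at hand 3 fell, with a median of -0.45. A match in these letters does not show that a factor binds there.

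The stretches around the E2F letters are shown for the 4 matched members with the smallest adjusted p, so that their place and form can be compared. Capitals mark the E2F letters on either strand, and each sequence reads 5′ to 3′ in the direction of the gene. The *Mcm3* stretch, chr1:20820266-20820295 on the minus strand, begins at position 17 past the RefSeq start site and lies in the first exon. The *Uhrf1* stretch, chr17:56304098-56304165 on the plus strand, begins at position -215 from the later of 2 RefSeq start sites and lies inside the gene, between exons. The *Mcm6* stretch, chr1:128359715-128359845 on the minus strand, begins at position -140 from its start site and holds 3 matches, of which 2 share bases. The *Pola1* stretch, chrX:93632256-93632323 on the minus strand, begins at position -168 from its start site. The promoters with these stretches held no N box letters.
Mcm3: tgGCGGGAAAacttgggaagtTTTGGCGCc
Uhrf1: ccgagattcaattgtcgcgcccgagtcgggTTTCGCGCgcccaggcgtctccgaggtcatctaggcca
Mcm6: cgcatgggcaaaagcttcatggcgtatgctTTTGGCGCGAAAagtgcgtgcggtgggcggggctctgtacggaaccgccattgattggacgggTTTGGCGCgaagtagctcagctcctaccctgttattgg
Pola1: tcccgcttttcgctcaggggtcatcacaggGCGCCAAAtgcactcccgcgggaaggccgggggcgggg

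Other genes of the pathway were examined in 3 further lists. Of 40 further replication genes 39 could be tested, and 11 fell, 0 rose and 28 did not pass (median log2 fold change -0.40), where 2.41% of all tested genes fell. *Tipin*, *Clspn* and *Donson*, which protect or stabilize replication forks, had the smallest adjusted p. *Tipin* had 70.9, 66.1 and 64.7 CPM in control and 46.04, 53.4 and 44.4 CPM in Rosa-Hes1 libraries (log2 fold change -0.49 ± 0.09 SE, edgeR adjusted p = 0.0157). *Clspn*, which encodes claspin, had 85.4, 81.97 and 78.8 CPM in control and 50.5, 63.1 and 44.6 CPM in Rosa-Hes1 libraries (log2 fold change -0.64 ± 0.12 SE, edgeR adjusted p = 0.0177). *Donson* had 23.3, 22.5 and 22.1 CPM in control and 16.4, 17.3 and 15.2 CPM in Rosa-Hes1 libraries (log2 fold change -0.47 ± 0.09 SE, edgeR adjusted p = 0.0194). In all 3 genes the groups did not overlap. The count was 25 without Rosa-Hes1 2, 0 without control 1 or Rosa-Hes1 1, and 1 without control 2, control 3 or Rosa-Hes1 3. At an unadjusted p under 0.05 in edgeR it was 31 with all libraries, where 4357 of all 16954 tested genes changed in either direction.

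Of 20 E2F and G1 genes 4 fell, 0 rose and 16 did not pass, with a median log2 fold change of -0.20, where 2.41% of all tested genes fell. At an unadjusted p under 0.05 in edgeR the number was 13, where 4357 of all 16954 tested genes changed in either direction. *Ccnd1*, the cyclin D1 gene that responds to growth factors, had 387, 375 and 429 CPM in control and 236, 292 and 240.1 CPM in Rosa-Hes1 libraries (log2 fold change -0.63 ± 0.10 SE, edgeR adjusted p = 0.0093). *E2f2*, a further activating E2F, had 41.8, 34.8 and 46.3 CPM in control and 25.99, 29.3 and 22.1 CPM in Rosa-Hes1 libraries (log2 fold change -0.66 ± 0.13 SE, edgeR adjusted p = 0.0229). *Rbl1* encodes the pocket protein p107, and *Tfdp1* the partner with which E2F factors bind DNA. *Rbl1* had 105, 102 and 105 CPM in control and 71.9, 81.4 and 60.2 CPM in Rosa-Hes1 libraries (log2 fold change -0.55 ± 0.10 SE, edgeR adjusted p = 0.019). *Tfdp1* had 174, 175 and 164 CPM in control and 128, 143 and 113 CPM in Rosa-Hes1 libraries (log2 fold change -0.42 ± 0.09 SE, edgeR adjusted p = 0.0276). None of the 4 overlapped between the groups. The count was 10 without Rosa-Hes1 2, 0 without Rosa-Hes1 1, 1 without control 1 or control 3, and 2 without control 2 or Rosa-Hes1 3.

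Of 25 genes of mitosis 2 fell and 23 did not pass, where 2.41% of all tested genes fell. All 25 log2 fold changes were below 0 (median -0.43) and 20 had an unadjusted p under 0.05 in edgeR. Among all 16954 tested genes, 4357 had such a p in either direction. *Nusap1*, which encodes a spindle protein, had 80.3, 80.3 and 81.6 CPM in control and 63.2, 60.6 and 45.7 CPM in Rosa-Hes1 libraries (log2 fold change -0.51 ± 0.11 SE, edgeR adjusted p = 0.0313). *Aurkb*, which encodes the Aurora B kinase, had 80.6, 78.8 and 77.7 CPM in control and 52.8, 68.2 and 47.7 CPM in Rosa-Hes1 libraries (log2 fold change -0.49 ± 0.12 SE, edgeR adjusted p = 0.045). Both had no overlap between the groups. *Ndc80*, a kinetochore gene, was next by adjusted p. It had 54.6, 50.7 and 49.03 CPM in control and 39.2, 43.9 and 31.2 CPM in Rosa-Hes1 libraries and did not pass, although the groups did not overlap (log2 fold change -0.43 ± 0.12 SE, edgeR adjusted p = 0.0629). The summed level of the 25 genes in Rosa-Hes1 was 73.8% of the control mean, close to the 73.5% of the replication genes. Their spread was wider, with a median CV of 7.50% in control and 22.0% in Rosa-Hes1 osteoclasts. The count that fell was 19 without Rosa-Hes1 2, 1 without Rosa-Hes1 3 and 0 without any of the other four libraries.

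Cell type markers were examined in the same libraries. Of 10 osteoclast markers 9 rose and *Ctsk* did not pass, where 5.85% of all tested genes rose by the same rule. All but *Ctsk* and *Mmp9* had been named by the study as increased in the same RNA-Seq. Their rise here is therefore not independent of that report. The summed level of the 10 markers was 10760, 13810 and 12720 CPM in control and 19380, 17050 and 20020 CPM in Rosa-Hes1 libraries 1 to 3. Within Rosa-Hes1 the osteoclast sum was lowest in library 2 and highest in library 3, the opposite of the order of the replication genes. Not every marker had the order of the sum. *Acp5*, *Ctsk*, *Atp6v0d2*, *Mmp9* and *Oscar* did. *Ocstamp*, *Calcr*, *Itgb3* and *Nfatc1* were lowest in library 1, and *Dcstamp* was highest there. Among the control libraries the osteoclast sum was highest in library 2 and lowest in library 1. This was not the opposite of the replication order there, which was 1, 2 and 3 from high to low. Of 8 macrophage markers *Cd68* rose and 7 did not pass, with sums of 4547 to 5668 CPM in control and 4889 to 5937 CPM in Rosa-Hes1 libraries. None of 12 progenitor and neutrophil markers was called, with 1 at an unadjusted p under 0.05 in edgeR, and their sums overlapped, from 216.7 to 420.8 CPM and from 212.7 to 286.2 CPM. From high to low these sums had the order 1, 2 and 3 of the replication genes in control, but the order 2, 3 and 1 in Rosa-Hes1. None of 5 stroma markers was called either, with 0 at an unadjusted p under 0.05. The stroma sums were 474.1, 172.9 and 173.9 CPM in control and 259.6, 368 and 107.7 CPM in Rosa-Hes1 libraries. Within Rosa-Hes1 the stroma sums had the order 2, 1 and 3 of the replication genes, although *Runx2* did not. In control the stroma sum of library 1 stood far above those of 2 and 3, whereas the replication sums were 4953, 4756 and 4669 CPM. The sums of 5 B cell markers did not exceed 5.89 CPM, those of 5 T and NK cell markers 0.495 CPM, those of 4 mast and basophil markers 3.10 CPM, those of 7 erythroid and megakaryocyte markers 66.4 CPM and those of 3 endothelial markers 50.5 CPM in any library, and none of these genes was called. *Cd3e* and *Cd3g* had no count in any library. The part of the share of osteoclasts, precursors or stroma in the level of the replication genes was not tested.

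**Figure D5:**
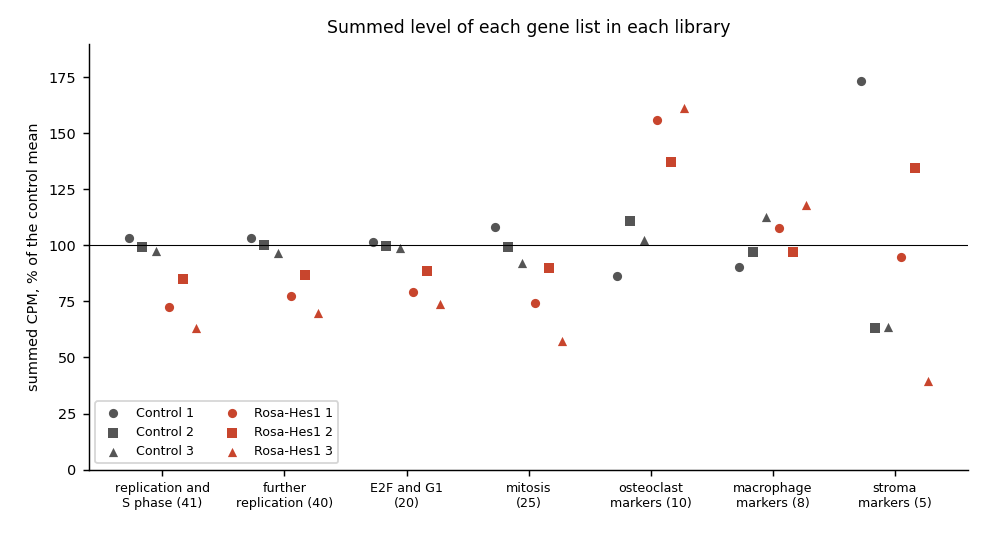
Summed CPM of each gene list in each library, as a percentage of the mean of the 3 control libraries (y axis), for the 41 replication and S phase genes, the 3 related lists and 3 lists of cell type markers (x axis); grey symbols are control and red symbols Rosa-Hes1 libraries. The replication genes sit at 72.4%, 85.1% and 63.1% in Rosa-Hes1 libraries 1 to 3 and the osteoclast markers at 155.9%, 137.2% and 161.1%.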

How the data were processed

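RNA-Seq was analysed from 3 control and 3 Rosa-Hes1 libraries (mRNA, stranded kit, paired-end reads, a single sequencing pool), described as biological replicates. The authors trimmed reads with Sickle, aligned them with HISAT2 2.1.0, used SAMtools 1.9, took out PCR duplicates using Picard, used HTSeq for the counting, and deposited whole-number counts per mouse Ensembl gene without normalization. The methods name a human genome, whereas the submitters' processing notes name GRCm38. Whether the counting used strand is not given in the sources used here. Besides *Fen1*, *Gins2* and *Chaf1a*, members shared at most 17.4% of exonic bases with another gene.

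Names and positions came from GENCODE M21. Genes with at least 10 counts over the 6 libraries were tested in edgeR 4.0.16 (R 4.3.3; TMM, robust quasi-likelihood, no covariate), with Benjamini-Hochberg adjustment over all 16954 genes. The covariates of the study's own DESeq2 fit are not given in the sources used here, and the fit here has none. The standard error is the log2 fold change over the square root of F. CPM use TMM-scaled library sizes. Reads outside genes, 17.4% to 18.1% of each library, were left out, and ambiguous reads were 5.51% to 6.07%. The biological coefficient of variation was 0.124. Libraries of a group differed by 10.1 to 19.8 times counting noise (chi-square per degree of freedom), more than a second deposit of 1 library would; this does not show that they came from separate cultures.

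The members and all lists were chosen with earlier results of these data known. The smallest and largest adjusted p of each role and every called member were described library by library, as were, of each further pathway list, the 3 genes lowest in adjusted p and, where a list had 5 calls or fewer, all of these. Cell type markers were given as counts and summed levels. Motifs were counted in RefSeq promoters of GRCm38.p6. Alternatives were DESeq2 size factors, the upper quartile, filterByExpr, no filter, DESeq2 1.42.0 (Wald), limma-voom (limma 3.58.1, quality weights), a replicate block and leaving out each library. The fits were tested on simulated data with known changes. The value of 1 marker gene is not reported here.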

Additional observations from a re-analysis of the deposited data

How the results depend on the processing

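The count of replication members that fell, 21 with all libraries, was 32 with limma-voom and between 0 and 35 with 1 library left out. With the DESeq2 Wald test the same 21 fell, and so did 10 further members. The median log2 fold change of the 41 members, -0.47, was -0.51 with limma-voom and between -0.59 and -0.36 with 1 library left out. All 41 log2 fold changes stayed below 0 under every alternative, except that of *Cdt1*, which ran from -0.14 to 0.03 with 1 library left out and was 0.03 without Rosa-Hes1 3. No member rose under any alternative. Without a filter on low counts 18 further replication, 7 E2F and G1 and 5 mitosis genes fell, against 11, 4 and 2, and 697 of all tested genes did, against 408. With the DESeq2 Wald test the numbers were 22, 8, 14 and 876, and with limma-voom 24, 7, 15 and 917. With 1 library left out they ran from 0 to 25, from 0 to 10, from 0 to 19 and from 21 to 1091, and the number of all tested genes that rose, 991, ran from 244 to 1555. In each of these the highest number came without Rosa-Hes1 2 and the lowest, tied with other libraries in 2 of the lists, without Rosa-Hes1 1. The cause was not tested. Leaving out a library also lowers the number of libraries in the test.

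Deviations of libraries with the same replicate number correlated at -0.00985, -0.106 and 0.207. Those with different numbers ran from -0.292 to 0.301, so these correlations cannot decide whether the numbers pair the samples. With the replicate number as a block, 22 members, 12 further replication, 4 E2F and G1 and 6 mitosis genes fell, 340 of all tested genes fell and 710 rose, and the members' median was -0.47.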
